A study of Mus musculus with 6 samples.

Results

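The 33 genes described here encode enzymes and regulators that make fatty acids, triglycerides and cholesterol. They were taken by symbol from the deposited expression table of mouse gastrocnemius, the large calf muscle, and each symbol matched 1 of the 46504 features in it. All 33 passed the filter on low counts, which kept 15448 features. They were grouped by role into 6 fatty acid synthesis genes, 6 desaturase and elongase genes, 5 genes of glycerolipid assembly, 5 regulators of the sterol regulatory element binding proteins (SREBPs) and 11 sterol synthesis enzymes. Wild-type mice gave 3 control libraries and 3 restraint libraries, both labelled day 4. Restraint meant confinement in a 50 mL tube for 3 h, repeated every 4 days, with food and water freely available under a light and dark cycle. The time between the last restraint and tissue collection, the handling of control mice, and the strain, age and sex are not given in the sources used here. Nor do the labels tie each library to a mouse of its own, so the tests reflect library-to-library spread, part of which may be technical.

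Fatty acid synthesis turns citrate into acetyl-CoA and malonyl-CoA and then into palmitate, which desaturases and elongases modify and which acyltransferases and lipins build into triglyceride. Sterol synthesis runs from acetyl-CoA through mevalonate, isoprenoids and squalene to cholesterol. SREBP1, made from Srebf1, mainly drives the fatty acid branch and responds to insulin, whereas SREBP2, made from Srebf2, mainly drives the sterol branch and responds to low membrane sterol. Both are made as membrane proteins, escorted by SCAP and held back by INSIG proteins, so their activity depends on protein cleavage, which mRNA counts do not measure. Muscle makes little fatty acid compared with liver and fat, and the malonyl-CoA made in muscle is best known for restraining fatty acid entry into mitochondria.

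Total counts per library ran from 44290720 to 51125779, and the 33 genes held 0.113% to 0.155% of them. Single genes had between 10 counts (Sqle in restraint 1) and 19149 counts (Lpin1 in restraint 2). The 6 skeletal muscle markers were the most abundant of the marker lists, with a summed level of 131900 to 144000 CPM, counts scaled to the size of the library, in controls and 131800 to 143600 CPM in restraint. Library sizes were scaled by TMM factors. In bulk tissue, fewer cells of a type and less RNA per cell cannot be told apart.

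A single gene of the 33, Lpin1, passed the edgeR quasi-likelihood test at a Benjamini-Hochberg adjusted p of 0.05, and it was higher in restraint. That is 3.03% of the members, where 1.83% of all tested features were called in either direction and 1.26% were called higher and 0.563% lower. At an unadjusted p under 0.05 stood 5 members, or 15.2%, against 15.6% of all features. In 8 members, or 24.2%, the 3 restraint libraries did not overlap the 3 controls, against 21.8% of all features. By these shares the members as a whole stood near the background of the comparison.

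**Figure D1:**
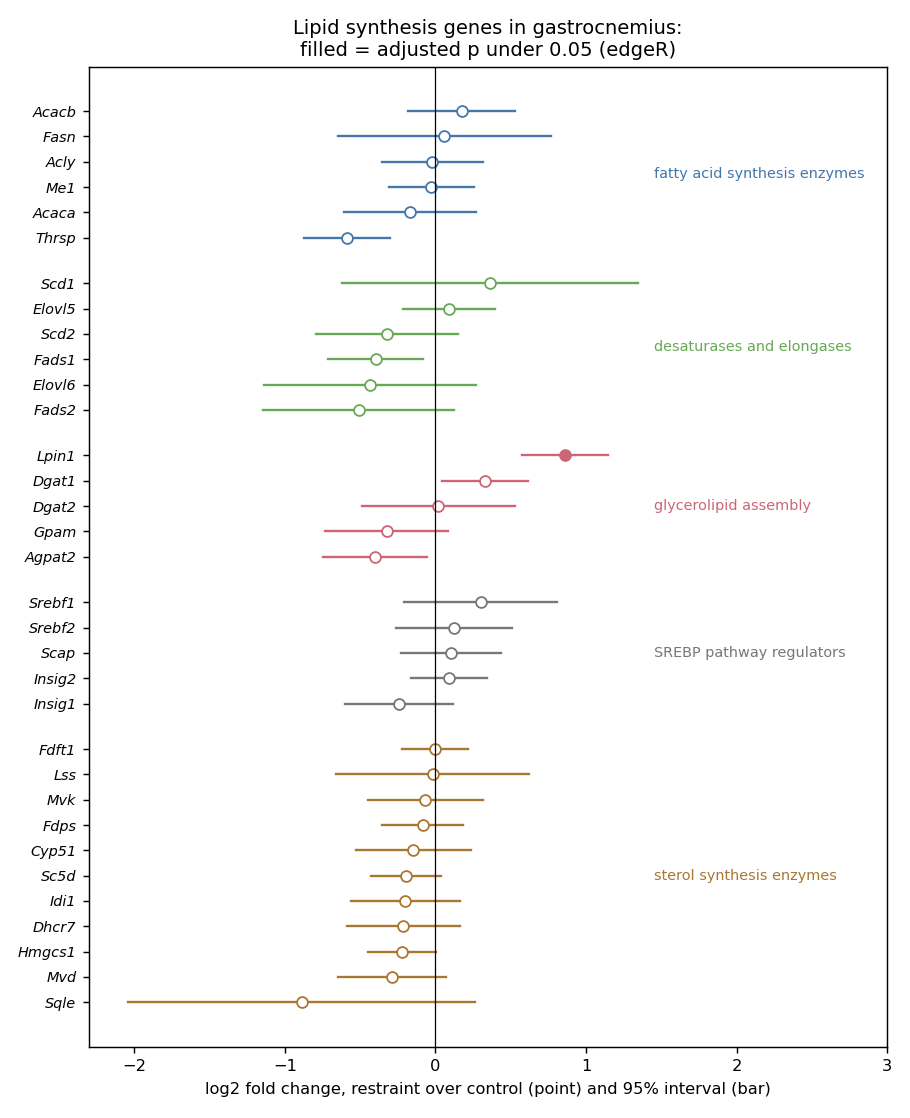
Log2 fold change of each of the 33 genes, restraint over control, with 95% intervals from the edgeR fit (n = 3 libraries per group), grouped by role. Lpin1 alone is filled (adjusted p under 0.05), and the points of all 11 sterol enzymes lie at or left of 0, Fdft1 turning positive with DESeq2 size factors and with library totals.

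Levels per length were compared with the deposited TPM. Me1, malic enzyme, which supplies NADPH for fatty acid synthesis, was the most abundant member with a mean level of 128 TPM over 6 libraries. Lpin1 followed at 77.7 TPM and Acacb, the mitochondrial acetyl-CoA carboxylase, at 45.8 TPM. Dgat2, which makes the last step to triglyceride, and Gpam, the mitochondrial enzyme that opens glycerolipid synthesis, had mean levels of 41.3 and 40.5 TPM. The ranges of Acacb, Dgat2 and Gpam overlapped. Fasn, fatty acid synthase, had a mean level of 1.75 TPM and Acaca, the cytosolic carboxylase that feeds it, 1.70 TPM. The 3 members below 1 TPM were Lss, lanosterol synthase, at 0.532 TPM, Sqle, squalene epoxidase, at 0.284 TPM and Elovl6, the elongase of palmitate, at 0.260 TPM. The TPM level of Acacb exceeded that of Acaca in every library, by 12.5-fold in control 1 and by 27.7-fold to 42.3-fold in the others. The smaller ratio in control 1 came with an Acaca level of 3.14 TPM there and 1.05 to 1.91 TPM elsewhere, although the Acaca level by counts, 10.5 CPM in control 1, was within the range of the other libraries, 7.36 to 11.2 CPM.

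**Figure D2:**
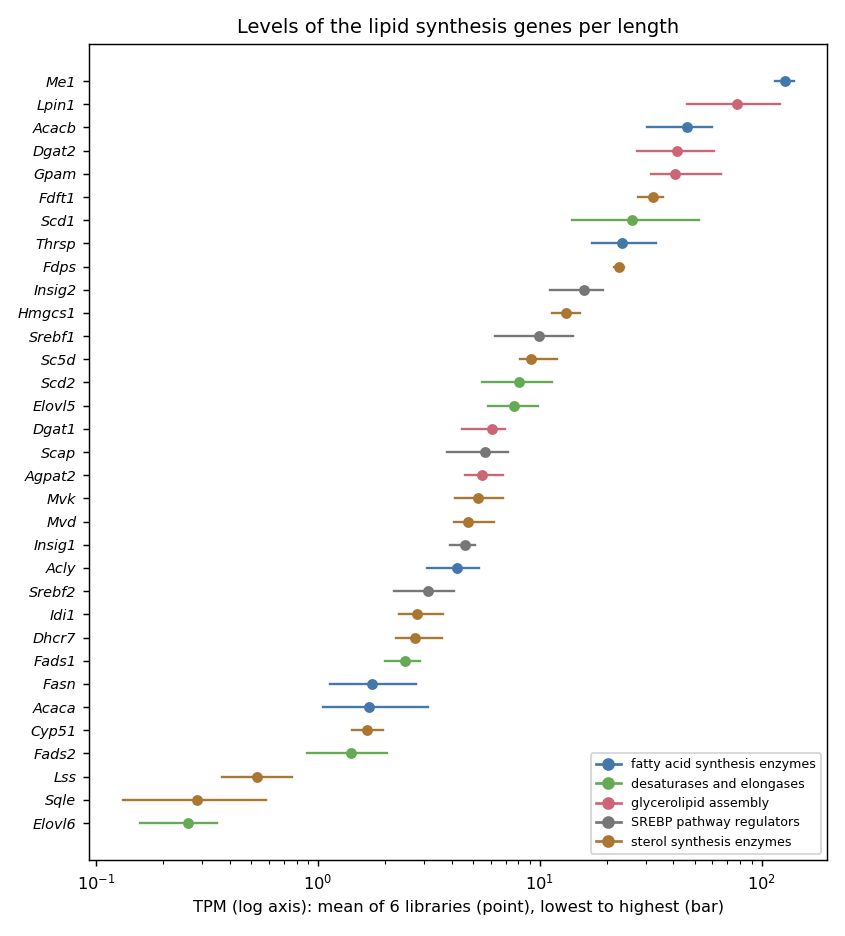
Deposited TPM of the 33 genes on a log axis, as the mean of 6 libraries (point) and the lowest and highest library (bar), coloured by role. Me1 and Lpin1 lead at 128 and 77.7 TPM, and Elovl6 and Sqle are lowest.

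Among the fatty acid synthesis genes none of 6 passed the test. Thrsp, the nuclear protein Spot 14 that responds to thyroid hormone and carbohydrate and promotes lipogenesis, came nearest. Its level was 16.9, 17.4 and 18.9 CPM in controls 1 to 3 and 13.0, 10.03 and 12.5 CPM in restraint 1 to 3. All restraint libraries lay below all controls. The means were 17.7 ± 1.03 and 11.8 ± 1.57 CPM (SD, n = 3 per group). On the log2 scale the fold change was -0.59 ± 0.13 (SE) with a 95% interval of -0.87 to -0.30. The edgeR adjusted p was 0.0607, and DESeq2, which called 3.2% of all features, called the gene with an adjusted p of 0.00767. In the other alternative fits Thrsp stayed above the threshold, with adjusted p between 0.0508 and 0.348.

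The enzymes of the same route showed wide spread within groups. Fasn had 7.23, 8.02 and 14.6 CPM in the controls and 13.9, 10.3 and 6.99 CPM in restraint. The groups overlapped fully, with control 3 and restraint 1 high and control 1 and restraint 3 low. Its log2 fold change was 0.06 ± 0.31 and its 95% interval, -0.65 to 0.76, allows a change of over 1.5-fold either way. Acacb had 202, 179 and 271 CPM in the controls and 241, 262 and 232 CPM in restraint, with a log2 fold change of 0.17 ± 0.16 and edgeR gave an adjusted p of 0.663. Acly, ATP citrate lyase, had a log2 fold change of -0.02 ± 0.15, Acaca -0.17 ± 0.19 and Me1 -0.03 ± 0.12. The narrowest 95% interval of the 6 was that of Me1, -0.31 to 0.26, so that a change as large as that fitted for Thrsp lies outside it.

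The 6 desaturases and elongases also gave no call, and their median on the log2 fold change scale was -0.36, against -0.01 over all tested features. Fads1, the delta-5 desaturase of polyunsaturated fatty acids, had 5.82, 5.90 and 5.09 CPM in the controls and 4.04, 4.31 and 4.42 CPM in restraint. The groups were apart, and the log2 fold change was -0.39 ± 0.14 and edgeR gave an adjusted p of 0.215. Fads2, the delta-6 desaturase encoded beside it, had 3.41, 2.19 and 2.63 CPM in the controls and 1.51, 2.68 and 1.597 CPM in restraint, with restraint 2 inside the control range. Its log2 fold change was -0.51 ± 0.28 with an adjusted p of 0.433 by edgeR.

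Scd1, the stearoyl-CoA desaturase that makes oleate, was the least reproducible of the abundant members. Its level was 43.4, 82.0 and 64.4 CPM in the controls and 146, 58.0 and 40.1 CPM in restraint. Restraint 1 held the highest value and restraint 3 the lowest, a 3.64-fold range within a group. The log2 fold change of 0.36 ± 0.43 became -0.37 without restraint 1, and neither fit called it. Scd2, the isoform best known from brain and nerve, had 20.8, 30.3 and 21.2 CPM in the controls and 17.6, 15.5 and 24.9 CPM in restraint, a log2 fold change of -0.32 ± 0.21. Elovl5, an elongase of polyunsaturated fatty acids, had a log2 fold change of 0.09 ± 0.13 and Elovl6 -0.44 ± 0.31, the latter from 23 to 58 counts per library.

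**Figure D3:**
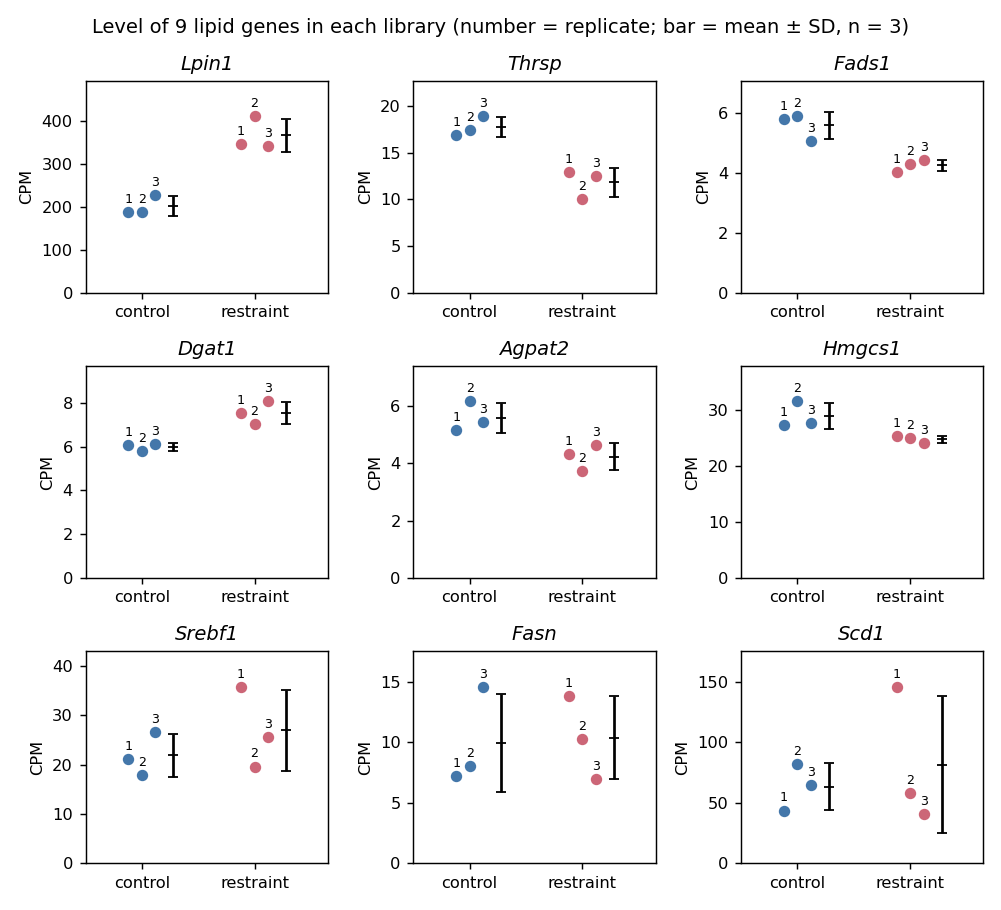
Level of 9 genes in CPM in each library, controls left and restraint right, with replicate numbers at the points and mean ± SD (n = 3) as bars. Lpin1, Thrsp, Fads1, Dgat1, Agpat2 and Hmgcs1 have groups that do not overlap, while Srebf1, Fasn and Scd1 overlap.

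Glycerolipid assembly held the called gene. Lpin1 encodes lipin 1, the phosphatidate phosphatase that makes diacylglycerol for triglyceride and the main lipin of skeletal muscle, and which also acts in the nucleus as a coactivator of fatty acid oxidation genes. Its level was 187, 188 and 228 CPM in controls 1 to 3 and 347, 410.2 and 340.3 CPM in restraint 1 to 3. Every restraint library lay above every control, by at least the distance from 228 to 340.3 CPM. The means were 201 ± 23.1 and 366 ± 38.7 CPM (SD, n = 3 per group), a 1.82-fold difference. The log2 fold change was 0.86 ± 0.13 (SE) with a 95% interval of 0.58 to 1.15 and edgeR gave an adjusted p of 0.0182, rank 72 of 15448 features by p. In deposited TPM the levels were 49.6, 46.1 and 70.1 in controls and 91.9, 120.4 and 87.8 in restraint. DESeq2 gave an adjusted p of 1.96e-08 and limma voom, which called 1.36% of features, 0.0203. By limma on log2 of TPM the gene was not called, with adjusted p of 0.0727 and 0.0781 for a pseudocount of 1 and 0.1 and 0.309 without a filter on low values, while on FPKM it was called at 0.0428.

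The size of the Lpin1 difference held from 0.77 to 0.96 on the log2 scale in every fit with a library left out, but its call did not. The edgeR adjusted p was 0.129 without control 1, 0.0629 without control 2, 0.0545 without restraint 2 and 0.0565 without restraint 3. It was 0.0211 without control 3 and 0.0273 without restraint 1. The other lipins were not called: Lpin2 had a log2 fold change of -0.23 ± 0.36 from means of 2.40 and 2.05 CPM in control and restraint, and Lpin3 -0.18 ± 0.31 from means of 2.90 and 2.57 CPM.

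The other 4 genes of this role had smaller differences. Dgat1, the acyltransferase that makes triglyceride in the endoplasmic reticulum, had 6.09, 5.80 and 6.13 CPM in the controls and 7.55, 7.05 and 8.08 CPM in restraint. The groups were apart, with a log2 fold change of 0.33 ± 0.13 and edgeR gave an adjusted p of 0.249. Agpat2, which makes phosphatidate and is essential in fat cells, had 5.17, 6.16 and 5.43 CPM in the controls and 4.31, 3.73 and 4.65 CPM in restraint, again apart. Its log2 fold change was -0.40 ± 0.15 with an adjusted p of 0.249 by edgeR. The annotated span of Agpat2 overlaps that of Egfl7, an endothelial gene on the opposite strand with 6647 counts against 1369 for Agpat2 over 6 libraries, and how strand was used in counting is not given. Gpam had 123 and 130.3 CPM in restraint 1 and 2 and 113 CPM in restraint 3, against 129, 127 and 202 CPM in controls. Control 3 alone stood away from the rest, and the log2 fold change was -0.32 ± 0.18. Dgat2 was also highest in control 3, at 70.4 CPM against 40.6 to 61.0 CPM in the other 5 libraries, with a log2 fold change of 0.02 ± 0.22. The median of the 5 genes was 0.02, and 0.30 without control 3.

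The windows around the start sites of Lpin1 and Thrsp, the members with the smallest p, are shown with that of Hmgcs1, the sterol enzyme with the smallest p, so that both branches are represented. Each window holds 250 bases before and 50 after a RefSeq transcript start on GRCm38.p6, 5′ to 3′ along the gene. The windows are chr12:16610917-16611216 (minus strand) for Lpin1, chr7:97417501-97417800 (minus strand) for Thrsp and chr13:119690101-119690400 (plus strand) for Hmgcs1. That of Lpin1 lies inside the annotated gene, which runs from 16535669 to 16653903, so it belongs to an internal start. Capitals mark matches on either strand to TCACNCCAC, a form of the sterol regulatory element, and to CCAAT, the box bound by NF-Y, a factor known to act with SREBPs at such promoters.
Lpin1: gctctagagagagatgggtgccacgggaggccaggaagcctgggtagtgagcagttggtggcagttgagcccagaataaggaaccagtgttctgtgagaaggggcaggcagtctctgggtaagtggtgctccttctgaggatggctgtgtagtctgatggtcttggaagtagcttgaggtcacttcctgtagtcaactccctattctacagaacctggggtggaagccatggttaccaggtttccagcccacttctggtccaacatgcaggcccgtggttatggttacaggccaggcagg
Thrsp: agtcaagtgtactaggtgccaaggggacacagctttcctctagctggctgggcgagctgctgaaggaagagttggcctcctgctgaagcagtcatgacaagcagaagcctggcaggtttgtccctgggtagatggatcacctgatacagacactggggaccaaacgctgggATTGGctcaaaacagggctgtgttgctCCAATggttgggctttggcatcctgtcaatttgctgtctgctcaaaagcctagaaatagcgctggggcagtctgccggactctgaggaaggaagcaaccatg
Hmgcs1: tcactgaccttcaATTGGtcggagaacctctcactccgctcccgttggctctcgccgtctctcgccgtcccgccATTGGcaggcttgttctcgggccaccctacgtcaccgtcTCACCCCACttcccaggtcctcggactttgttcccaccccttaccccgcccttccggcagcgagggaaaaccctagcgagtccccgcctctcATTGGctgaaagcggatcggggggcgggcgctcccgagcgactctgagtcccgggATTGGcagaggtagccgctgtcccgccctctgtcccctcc
The Hmgcs1 window held the sterol element once, 137 bases before the start, and 4 CCAAT boxes, all on the opposite strand. Thrsp held 2 CCAAT boxes and no sterol element, and these letters did not occur in the Lpin1 window. RefSeq windows matched 25 of the 33 members, with 34 windows in all. The sterol element was in 1 of these 34, against 1.24% of 32851 windows of all genes, and CCAAT in 20 of 34, against 37.4%. The palindromic E-box CACGTG, also bound by SREBP1, was in 6 of 34, against 7.15%. Some genes have several windows, and those of Scap overlap and share an E-box. Counted by gene, the sterol element was in 1 of 25 members, CCAAT in 19 and the E-box in 5. The shares over all genes are per window. The matches marked in the printed windows do not overlap each other. Scd1, Scd2, Fads1, Dgat1, Dgat2, Fdps, Fdft1 and Sqle were not matched.

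None of the 5 regulators passed the test, and none had groups apart. Srebf1 had 21.1, 18.0 and 26.6 CPM in the controls and 35.9, 19.6 and 25.5 CPM in restraint. Restraint 1 was the highest library, as it was for Scd1, and the other 2 restraint libraries lay within the control range. The log2 fold change was 0.30 ± 0.22 and edgeR gave an adjusted p of 0.584. Without restraint 1 the log2 fold change was 0.04. The span of Srebf1 overlaps that of Rai1, a gene on the opposite strand, and counts per gene do not separate its SREBP1a and SREBP1c transcripts. Srebf2 had 9.29, 7.31 and 9.11 CPM in the controls and 8.09, 11.4 and 8.52 CPM in restraint, a log2 fold change of 0.12 ± 0.17.

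Insig1, the retention protein that is itself a target of SREBPs, had 7.74, 8.38 and 6.77 CPM in the controls and 7.50, 5.53 and 6.29 CPM in restraint. Restraint 1 lay inside the control range, and the log2 fold change was -0.24 ± 0.16 with an adjusted p of 0.521 by edgeR. Insig2, the form less tied to SREBP activity, had a log2 fold change of 0.09 ± 0.11 and Scap, the escort protein, 0.11 ± 0.15. In deposited TPM the mean level of Insig2 was 3.43-fold that of Insig1.

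All 11 sterol synthesis enzymes had log2 fold changes below 0, none past the test, and their median was -0.20. Over all tested features 50.9% were negative and the median was -0.01. Of the 11, Fdft1 was at 0.00 and turned positive with DESeq2 size factors and with library totals, so that 10 were negative there. With a library left out, 9 to 11 were negative. Hmgcs1, the cytosolic synthase that makes HMG-CoA, had 27.4, 31.6 and 27.8 CPM in the controls and 25.3, 24.9 and 24.1 CPM in restraint. The groups were apart, the restraint libraries within 1.05-fold of each other. The log2 fold change was -0.22 ± 0.10 with a 95% interval of -0.45 to 0.00 and edgeR gave an adjusted p of 0.327. Sc5d, a desaturase late in the pathway, had 24.0, 22.6 and 26.1 CPM in the controls and 22.3, 20.2 and 21.0 CPM in restraint, also apart, with a log2 fold change of -0.20 ± 0.10. Mvd, the decarboxylase that makes isopentenyl diphosphate, had 4.41, 5.87 and 5.58 CPM in the controls and 4.20, 4.22 and 4.56 CPM in restraint. Restraint 3 passed control 1, and the log2 fold change was -0.29 ± 0.16.

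The groups of Dhcr7, a reductase late in the pathway to cholesterol, were apart by a narrow margin, from 4.19 CPM in the lowest control to 4.18 CPM in the highest restraint library. Its log2 fold change was -0.21 ± 0.16. In 3 of 11 sterol genes, or 27.3%, the groups did not overlap, against 21.8% of all features in either direction. All 3 were lower in restraint, where 10.6% of all features were apart and higher and 11.1% apart and lower. Fdft1, squalene synthase and the most abundant enzyme of the branch at 32.4 TPM, had 72.0, 79.0 and 71.9 CPM in the controls and 78.4, 72.3 and 71.5 CPM in restraint. Its 95% interval of -0.22 to 0.21 is the narrowest of the 11. The annotated span of Fdft1 overlaps that of Ctsb, and the span of Cyp51 that of Akap9, each on the opposite strand with more counts. Overlap of exons was not examined, and how strand was used is not given. Sqle had 0.449, 1.07 and 0.330 CPM in the controls and 0.225, 0.364 and 0.393 CPM in restraint, from 10 to 44 counts per library. Control 2 held the highest value, and the log2 fold change of -0.89 ± 0.51 became -0.24 without it. For the remaining sterol enzymes the log2 fold changes were -0.07 (Mvk, mevalonate kinase), -0.20 (Idi1, isopentenyl diphosphate isomerase), -0.09 (Fdps, farnesyl diphosphate synthase), -0.02 (Lss) and -0.15 (Cyp51, lanosterol demethylase).

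In the fit of all 6 libraries the fatty acid and triglyceride genes lay on both sides of 0 and the sterol genes on a single side, Fdft1 excepted under the scalings named above. The 17 fatty acid and triglyceride genes ran from -0.59 to 0.86 on the log2 scale, 7 positive and 10 negative, and their median was -0.03. The sterol genes, with the exception of Sqle, lay between -0.29 and 0.00. Per library, the median deviation of the sterol genes from their mean over the 6 libraries was 0.04, 0.17 and 0.08 on the log2 scale in controls 1 to 3. It was -0.08, -0.11 and -0.08 in restraint 1 to 3, so that the groups were apart. The median deviation over all tested features was also apart, within a far smaller range. It was 0.011, 0.006 and 0.016 in controls and 0.005, 0.002 and 0.002 in restraint. For the fatty acid and triglyceride genes it was -0.03, -0.08 and 0.21 in controls and 0.13, -0.05 and -0.14 in restraint, which overlapped. Within these, the desaturases and elongases were apart, at 0.04, 0.29 and 0.06 in controls and -0.17, -0.175 and -0.10 in restraint. The fatty acid synthesis genes and those of glycerolipid assembly overlapped. Without each library in turn the sterol median lay between -0.23 and -0.14, and the fatty acid and triglyceride median between -0.26 and -0.05. Without restraint 1 the fatty acid and triglyceride median was -0.26, with 13 of 17 genes negative, and the sterol median -0.23, with 9 of 11 negative. In that fit the former lay below the latter. The difference between the branches was not tested.

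All 6 tendon markers had log2 fold changes below 0, and none passed the test. Kera, a proteoglycan, was at -1.34 ± 0.35 (SE), Tnmd, tenomodulin, at -1.06 ± 0.39 and Fmod, fibromodulin, at -0.91 ± 0.32. In these 3 every restraint library lay below every control, as in 11.1% of all features. The groups overlapped for Comp at -0.56 ± 0.36, Scx at -0.32 ± 0.21 and Thbs4 at -0.09 ± 0.25. The summed tendon level was 231, 179 and 224 CPM in controls 1 to 3 and 81.0, 199.9 and 150 CPM in restraint 1 to 3, which overlapped. It was lowest of the controls in control 2, where the sterol median was highest. In restraint 2 it was highest of its group, where the sterol median was lowest. The myelin sum, given below, was highest of the controls in control 2 and lowest of the restraint libraries in restraint 2. In restraint 3 the myelin sum was highest of its group, where the sterol median, -0.083, was close to the -0.077 of restraint 1. The part of either tissue in the sterol gene values was not tested.

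**Figure D4:**
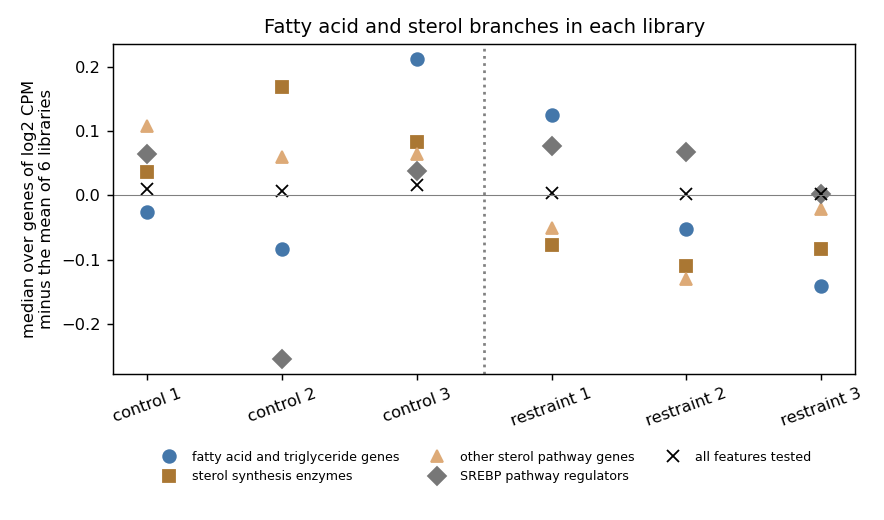
Median over the genes of each list of log2 CPM minus the mean of the 6 libraries, per library. Sterol synthesis enzymes are above 0 in the 3 controls and below 0 in the 3 restraint libraries, whereas fatty acid and triglyceride genes are highest in control 3 (0.21) and restraint 1 (0.13). Desaturases and elongases, which are part of the latter and were also apart, are not drawn separately.

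Other genes of these pathways gave no calls by edgeR over all features. Of 12 further sterol genes 10 were tested, 9 of them below 0 on the log2 scale, and their median was -0.18; Idi2 and Tm7sf2 had too few counts. Hsd17b7, a reductase of sterol synthesis, was the exception, with means of 4.08 ± 0.113 and 5.66 ± 0.723 CPM and a log2 fold change of 0.47 ± 0.15 (adjusted p 0.174). Ggps1, which makes geranylgeranyl diphosphate, went from a mean of 11.3 ± 0.215 CPM in controls to 8.66 ± 1.05 CPM in restraint, a log2 fold change of -0.38 ± 0.13 (adjusted p 0.190). Of 18 further lipogenic genes 8 lay above and 10 below 0 on the log2 scale, and the median was -0.03. Gpat3, an acyltransferase of the endoplasmic reticulum that opens glycerolipid synthesis, had means of 4.11 ± 1.16 and 8.64 ± 2.84 CPM and a log2 fold change of 1.07 ± 0.28. The adjusted p was 0.103 by edgeR, and DESeq2 called it. Gpat4, its close relative, had 0.12 ± 0.12, and Oxsm, the mitochondrial ketoacyl synthase, -0.24 ± 0.12. Of 6 genes of the liver X receptors, which induce Srebf1 when sterols are high, 5 were positive with a median of 0.17. Nr1h3 was at 0.24 ± 0.13 and Nr1h2 at 0.15 ± 0.12. Over all tested features 50.9% were negative. Per library, the median deviation of the 6 genes was -0.13, -0.31 and 0.17 in controls and 0.09, 0.17 and -0.05 in restraint, which overlapped.

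Markers of fat cells and of myelin varied between libraries within each group, and some lipid genes were high or low in some of the same libraries. None of 8 adipocyte markers passed the test. Their summed level was 257 to 425 CPM in controls and 277 to 393 CPM in restraint, most of it from Fabp4, which endothelial cells also express. Adipoq, the defining hormone of fat cells, had 5.39, 15.6 and 15.6 CPM in the controls and 15.7, 8.93 and 7.27 CPM in restraint. Plin1, the coat protein of fat droplets, had 1.31, 3.12 and 5.69 CPM in the controls and 2.81, 1.71 and 1.39 CPM in restraint. Control 1 and restraint 3 were thus low for both, as they were for Fasn and Scd1. Control 2 differed, with Fasn low at 8.02 CPM and Adipoq at 15.6 CPM. Among controls Scd1 was highest in control 2, at 82.0 CPM, and Plin1 in control 3. Of 3 brown fat markers, Ucp1 and Elovl3 were at 0 counts in all 6 libraries. The third, Cidea, had 1.14, 1.24 and 1.12 CPM in the controls and 1.595, 1.69 and 1.53 CPM in restraint. Its groups were apart and higher in restraint, as in 10.6% of all features. The log2 fold change was 0.46 ± 0.21 and edgeR gave an adjusted p of 0.340.

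The 7 Schwann cell and myelin markers gave no call, with a summed level of 171, 473 and 281 CPM in the controls and 140, 122 and 359 CPM in restraint 1 to 3. Control 2 and restraint 3 were highest in their groups, and they were also highest for Scd2. Sqle was highest in control 2 as well, while restraint 2 and 3 had the same 17 counts of it. Of 7 macrophage markers Cd68 was called higher, and the summed level was 28.8 to 38.6 CPM in controls and 36.6 to 90.8 CPM in restraint. The summed levels of the adipocyte and myelin lists overlapped between the groups, as did those of the endothelial and red cell lists, which gave no call. The part of these cell types in the lipid gene values was not tested.

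**Figure D5:**
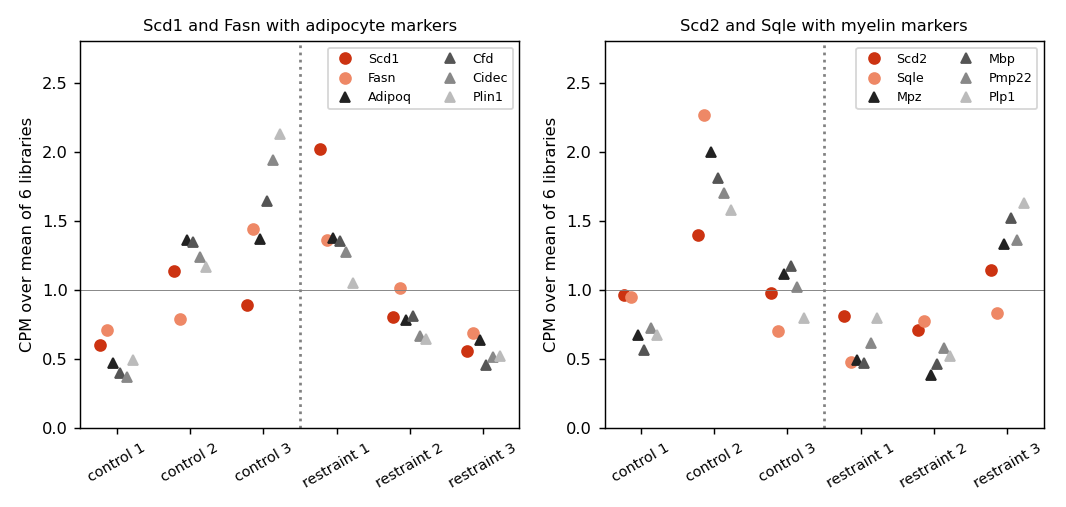
CPM in each library divided by the mean of the 6 libraries, for Scd1 and Fasn with 4 adipocyte markers (left) and for Scd2 and Sqle with 4 myelin markers (right). Members are circles and markers are triangles; control 1 and restraint 3 are low on the left, and control 2 is high on the right.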

How the data were processed

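PolyA RNA of gastrocnemius from 3 control and 3 restraint libraries was analysed, grouped by the treatment label. Per the submitters' processing notes, the tools were StringTie 2.1.3b, HISAT2 2.1.0, Trimmomatic and bcl2fastq 2.20.0 and the build was GRCm38 (mm10); their roles and order are not stated there. The deposited table gives read counts per feature, 1 column per library, per the file headers. FPKM and TPM columns, also the authors' values per the file headers, stand beside them. Whether counting used strand is not given there.

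The two-sided quasi-likelihood test of edgeR 4.0.16 (R 4.3.3) was run on counts after TMM scaling and filterByExpr (minimum count 10, minimum total 15), with Benjamini-Hochberg adjustment over 15448 features at 0.05. The standard error was taken as the absolute log2 fold change over the root of F. The 825 loci without a symbol kept their own identifiers and stayed in; they took 4.84% to 7.14% of counts. Medians per library used log2 CPM with a prior count of 2. A count of 3 corresponded to 0.0551 to 0.0731 CPM, a limit for counting error only. Libraries of a group differed from each other by more than counting noise, with a chi-square of at least 27.2 per degree of freedom. The script was tested on simulated counts with known changes.

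Members and lists were chosen with earlier results of these data known. Values in every library are given for the 8 members of smallest p, the extremes of each role and 8 fixed genes (Srebf1, Srebf2, Insig1, Fasn, Scd1, Lpin1, Hmgcs1, Sqle); from other lists, 2 genes of smallest p. Lpin2, Lpin3, Gpat4 and the marker genes and members given beyond this were named after their values were seen. Gene overlaps are from GENCODE M21 on GRCm38, promoter windows and gene coordinates from RefSeq on GRCm38.p6. Alternatives were DESeq2 1.42.0, limma 3.58.1 (voom, or log2 of TPM or FPKM with a pseudocount of 1 or 0.1), other scalings and filters, features left out, a replicate block and each library left out.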

Additional observations from a re-analysis of the deposited data

How the results depend on the processing

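Of 645 single-gene values over 20 alternatives, 32 changed sign, all of genes that were not called in either fit; the cause was not tested. With settings that kept all libraries, Acly had a log2 fold change of 0.0549, 0.0691, 0.0196 and 0.0549 by limma on TPM with a pseudocount of 1 and 0.1, FPKM, and unfiltered TPM. Dgat2 had -0.0125 with upper quartile factors, Insig2 -0.0166 with FPKM, and Fdft1 0.0040, 0.0016 and 0.0022 with DESeq2 size factors, library totals and the DESeq2 test. With a library left out, values ran from -0.106 to 0.0903 for Acly, -0.21 to 0.45 for Fasn, -0.0974 to 0.0909 for Me1, -0.37 to 0.69 for Scd1, -0.0310 to 0.15 for Elovl5, -0.12 to 0.30 for Dgat2, -0.0463 to 0.22 for Srebf2, -0.13 to 0.0604 for Mvk, -0.0470 to 0.0458 for Fdft1 and -0.32 to 0.15 for Lss. Lpin1 was called in 12 of 20 alternatives, always higher. No member was called (0) on TPM with either pseudocount or unfiltered, where its adjusted p was 0.0727, 0.0781 and 0.309, nor under the replicate block, and 0 to 1 with a library left out. DESeq2 called 1 member lower, Thrsp, and 1 other lipogenic gene, Gpat3.

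Features called numbered 739 by DESeq2 (486 higher, 253 lower), 122 (99 and 23) and 112 (92 and 20) on TPM with a pseudocount of 1 and 0.1, 153 (111 and 42) on FPKM and 14 (10 and 4) on unfiltered TPM. Library totals left 56 lower. With a library left out, 16 to 350 were called, 12 to 254 higher and 4 to 96 lower. The labels do not say whether replicate numbers pair the libraries. Same-numbered libraries had correlations of 0.01, -0.20 and -0.21 (deviations from group means), and 2 of 6 libraries correlated best with their own number. With 3 libraries per group these values cannot decide whether same-numbered libraries shared a batch. The replicate block called 60 features (52 higher, 8 lower), where Lpin1 had 0.86 with an adjusted p of 0.098. The median of desaturases and elongases was -0.24 on TPM, -0.0762 on FPKM and -0.17 on unfiltered TPM, and -0.41 to -0.19 with a library left out. That of sterol enzymes was -0.13, -0.14 and -0.13 on these, where the median of all features was 0.034, 0.006 and 0.006, against -0.01 in the fit reported, and -0.23 to -0.14 with a library left out; the cause was not tested. Over the fits with a library left out, the median of glycerolipid genes ran from -0.12 to 0.30. That of fatty acid and triglyceride genes ran from -0.26 to -0.0521 and that of all members from -0.21 to -0.0690. The fatty acid and triglyceride median was 0.026 and 0.033 on TPM with a pseudocount of 1 and 0.1. It was 0.020 on FPKM and -0.0038 on unfiltered TPM. Low counts limit Sqle, with 10 to 44 per library, and Elovl6, with 23 to 58, and 3 libraries per group limit all members.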
